A study of Capra hircus with 6 samples.

Results

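The genes described are 10 that mark the magnocellular and hypophysiotropic neurons of the hypothalamus, chosen by symbol from the deposited count table, which has 28907 gene rows. They are the nonapeptide hormone precursors OXT and AVP, the lineage factors SIM1, OTP and POU3F2, the hormone precursors TRH, CRH, SST and GHRH, and the galanin precursor GAL. Each symbol matched 1 row, and all 10 passed the filter on low counts. The libraries came from the medio-basal hypothalamus of adult Alpine goats, taken either in January during the follicular phase (5 goats) or in mid-May during anestrus, when goats do not cycle (8 goats). Luteal-phase goats of January were also collected, and their libraries were not analysed here. The labels name no treatment for any group. The RNA of the goats of a condition was combined into 2 random equimolar mixes, called pools here, so an n of 2 counts pools and not goats. The labels do not state the number of goats in a pool or whether 1 goat could enter both.

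Magnocellular neurons of the paraventricular and supraoptic nuclei make oxytocin or vasopressin and send axons through the median eminence to the posterior pituitary, where the hormones enter the blood. Hypophysiotropic neurons release TRH, CRH, somatostatin or GHRH into the portal vessels of the median eminence, from where they act on the anterior pituitary. The transcription factors SIM1, OTP and POU3F2 are needed in mice for the development of several of these neuron types. Many of the cell bodies lie in the paraventricular and supraoptic nuclei, whereas GHRH neurons lie in the arcuate nucleus of the medio-basal hypothalamus. AVP is also made by neurons of the suprachiasmatic nucleus, and SST and GAL by neurons in many areas.

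The libraries held 14553821 to 25292678 reads. Sampling noise did not account for the differences between pools of a group (chi-square over its degrees of freedom, 19.9 for the follicular and 31.3 for the anestrus pools). Levels are counts per scaled library total in the usual CPM unit. They are not divided by transcript length, so levels are compared between libraries and not between genes. In bulk tissue, fewer cells of a type and less RNA per cell cannot be told apart.

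Among the 10 genes, 0 were called (adjusted p under 0.05, edgeR quasi-likelihood test over all genes), where the call rate among the 16756 genes tested was 0.203%. At an unadjusted p under 0.05 there were 6 of the 10, against 8.55% of all genes tested, and 5 of these 6 were higher in the follicular phase, against 4.26%. DESeq2's Wald test called 3, SIM1, POU3F2 and TRH, beside 0.853% of all genes, and limma-voom called 0, beside 0.179%. With edgeR and no filter on low counts the number was 4, beside 1.38% of all genes. With 1 pool left out it was 6 without anestrus pool 1 (beside 4.72% of all genes), 5 without anestrus pool 2 (3.39%), 1 without follicular pool 2 (0.553%) and 0 without follicular pool 1 (0.0233%). Both follicular pools stood above both anestrus pools for 6 of the 10 (OXT, AVP, SIM1, POU3F2, TRH and CRH), where 17.6% of all genes did so. These 6 also had log2 fold changes above 1, a size that 1.62% of all genes reached. OTP, SST and GAL overlapped between groups, and GHRH stood lower in both follicular pools, which makes 7 of 10 without overlap in either direction, beside 38.3% of all genes. The median log2 fold change was 1.48 over the 10 genes, beside 0.00 over all genes tested, and positive values made up 8 of 10 beside 49.9%. The members were chosen with earlier results of these data known, so these counts are descriptions.

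**Figure D1:**
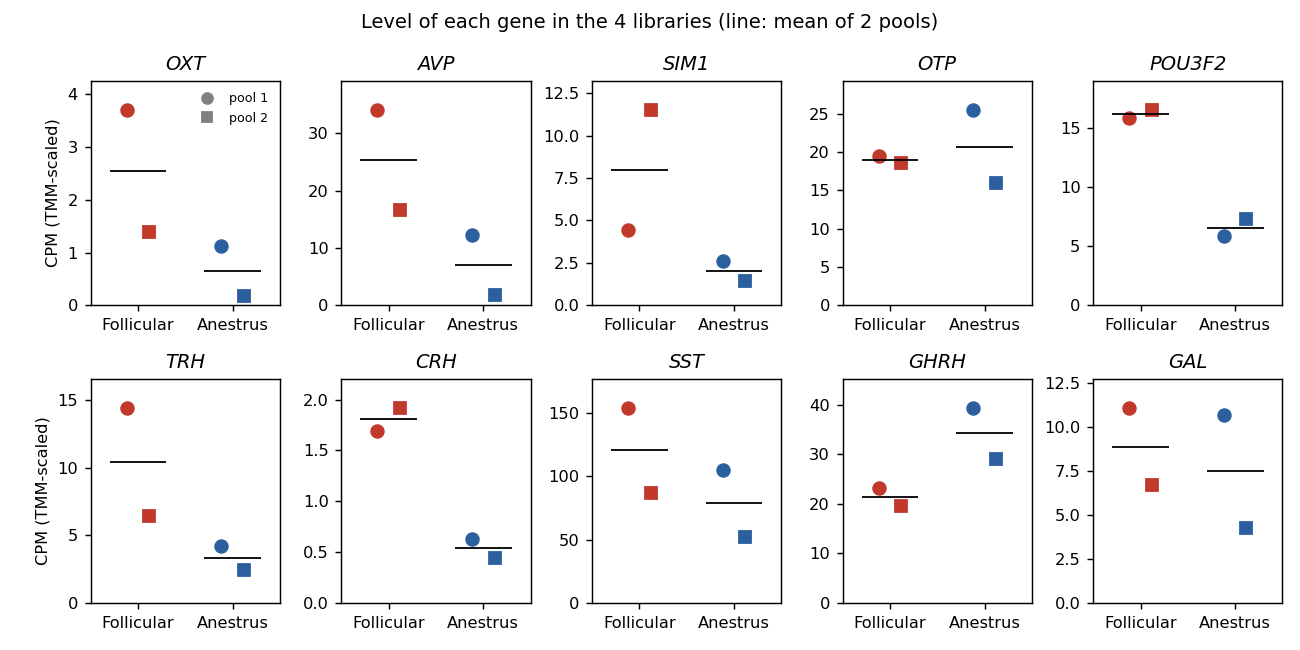
CPM (linear axis from 0, a separate scale for each gene) of the 10 genes in the follicular pools (red) and the anestrus pools (blue), with pool 1 as a circle, pool 2 as a square and the mean of 2 pools as a line. OXT, AVP, SIM1, POU3F2, TRH and CRH have both follicular pools above both anestrus pools, and GHRH has both below. For OXT, AVP, TRH, SST and GAL, pool 1 exceeds pool 2 by 1.5 times or more in both groups.

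Oxytocin RNA was scarce in every library. OXT (gene 108637398) had 94 and 24 reads in follicular pools 1 and 2, and 16 and 3 reads in anestrus pools 1 and 2. These came to 3.70 and 1.39 CPM in the follicular phase, against 1.12 and 0.167 CPM in anestrus. The highest anestrus pool was close to the lowest follicular pool, while the pools of each group were well separated. The log2 fold change of OXT was 2.05 ± 0.80 (SE), with an unadjusted p of 0.0315 and an adjusted p of 0.513 (edgeR). Anestrus pool 2, with its 3 reads, weighed heavily, since the log2 fold change was 1.25 without it and 3.91 without anestrus pool 1. It was 1.18 without follicular pool 1.

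Vasopressin RNA showed the same order of libraries. AVP (gene 106502757) had 865 and 285 reads in the follicular pools and 176 and 31 reads in the anestrus pools. Its level was 34.0 and 16.6 CPM in the follicular phase, against 12.3 and 1.72 CPM in anestrus. The groups did not overlap, yet the 2 anestrus pools differed 7.17-fold from each other (95% exact interval 4.87 to 10.9, counting error only) and the 2 follicular pools 2.06-fold (1.80 to 2.36). The mean was 25.3 ± 12.4 CPM against 7.03 ± 7.51 CPM (SD, n = 2 pools each), so the distance between the groups was of the size of the spread within them. For AVP, edgeR gave a log2 fold change of 1.87 ± 0.95 (adjusted p = 0.718). This became 3.88 when anestrus pool 1 was dropped and 1.09 when anestrus pool 2 was dropped. With 1 pool left in a group its spread is no longer measured, and such fits do not settle whether AVP changed.

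The proportion of AVP to OXT reads hardly varied, although the level of each gene varied widely. Per OXT read there were 9.20 AVP reads in follicular pool 1 (95% exact interval 7.43 to 11.5) and 11.9 in follicular pool 2 (7.82 to 18.8). In anestrus there were 11.0 in pool 1 (6.59 to 19.7) and 10.3 in pool 2 (3.22 to 52.8). The 4 intervals share a common stretch, and the ratio differed 1.29-fold between its highest and lowest library. By contrast, the highest library exceeded the lowest 22.2-fold for OXT and 19.8-fold for AVP, spans that 0.352% and 0.406% of all genes tested exceeded. Of the 45 pairs among the 10 genes, OXT with AVP had the steadiest ratio. The log2 ratio of OXT to AVP averaged -3.39 ± 0.26 in the follicular phase and -3.41 ± 0.06 in anestrus (SD, n = 2 pools each). This ratio depends neither on library scaling nor, as a comparison between libraries, on transcript length. The interval in anestrus pool 2 is wide because it rests on 3 OXT reads. In the ARS1.2 assembly, RefSeq lists OXT and AVP as neighbouring genes that do not overlap.

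**Figure D2:**
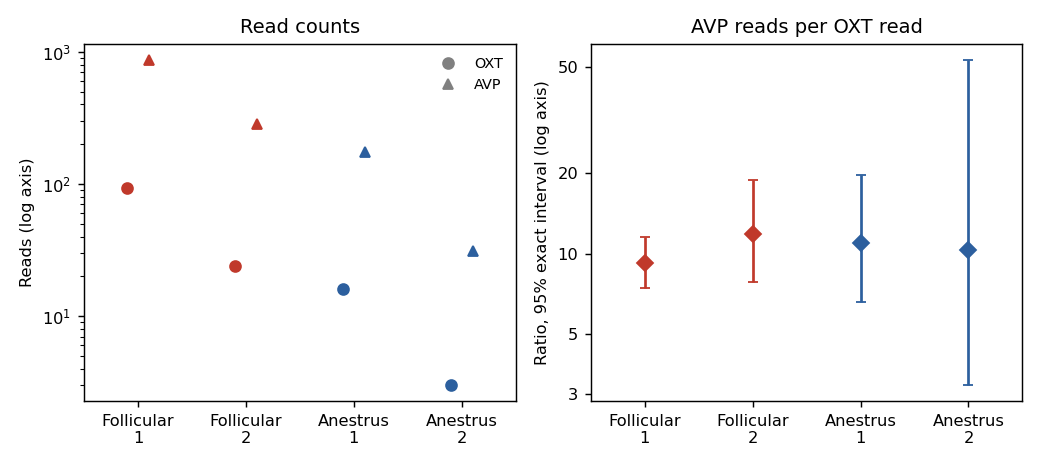
Left, reads of OXT (circles) and AVP (triangles) in each library on a log axis, with the follicular phase in red and anestrus in blue. Right, AVP reads per OXT read on a log axis with 95% exact binomial intervals. The ratios run from 9.20 to 11.9 and their intervals from 3.22 to 52.8, while the reads of each gene differ about in parallel across the libraries.

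The genes with patterns most like OXT and AVP were sought among named genes with a mean of at least 5 CPM. Likeness was the root mean square difference of log2 CPM, centred on the 4 libraries. For OXT, the closest of 11722 genes was AVP, at 0.28, followed by HCRT, the precursor of the orexins made by neurons of the lateral hypothalamus, at 0.50, and TRH at 0.56. For AVP, the closest gene was HCRT at 0.62, then C15H11orf96 at 0.75 and APOE, the main brain apolipoprotein, at 0.78. OXT itself lay under the minimum and was not among the genes compared with AVP. HCRT had 17.9 and 14.8 CPM in the follicular pools against 11.1 and 3.11 CPM in the anestrus pools, again with anestrus pool 2 the lowest. With 4 libraries, these distances describe a shared order of pools and no more.

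The lineage factors differed among themselves. SIM1 (gene 102185362), a transcription factor required for paraventricular and supraoptic neurons in mice, had 4.45 and 11.5 CPM in the follicular pools, against 2.59 and 1.44 CPM in the anestrus pools. The groups did not overlap, and here follicular pool 2 was the high library, unlike for OXT and AVP. Its log2 fold change was 1.98 ± 0.52, with an unadjusted p of 0.00378 and an adjusted p of 0.278 (edgeR). SIM1 passed in DESeq2's Wald test (adjusted p = 0.036), and its log2 fold change was 1.15 without follicular pool 2 and 2.54 without follicular pool 1. The ratio of SIM1 to AVP was therefore less steady than that of OXT to AVP, at rank 29 of the 45 pairs counted from the steadiest. AVP reads per SIM1 read were 7.65 and 1.44 in the follicular pools against 4.76 and 1.19 in the anestrus pools.

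POU3F2 (gene 102188406), also called BRN2, acts with SIM1 in the mouse lineage that makes oxytocin, vasopressin and CRH. It had the tightest pools among the genes with a log2 fold change above 1, at 15.8 and 16.5 CPM in the follicular phase against 5.82 and 7.33 CPM in anestrus. Both follicular libraries exceeded both anestrus libraries by over the spread in either group. The log2 fold change was 1.29 ± 0.29, the unadjusted p 0.00102, the lowest of the 10 genes, and the adjusted p 0.19 (edgeR). POU3F2 passed in DESeq2's Wald test (adjusted p = 0.0145). Its log2 fold change lay between 1.14 and 1.52 over the 13 alternatives.

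OTP (gene 102188596), a homeobox factor needed in mice for magnocellular, TRH, CRH and somatostatin neurons, gave no such difference. It had 19.5 and 18.5 CPM in the follicular pools, which lay inside the anestrus range of 25.4 and 15.9 CPM. Its log2 fold change was -0.12 ± 0.28 with an adjusted p of 0.956 (edgeR), and it turned to 0.25 without anestrus pool 1. OTP reads per POU3F2 read were 1.23 and 1.12 in the follicular pools against 4.37 and 2.17 in the anestrus pools, and these did not overlap. The ratios of OTP to all the other members except GAL were also without overlap, so this is not particular to POU3F2.

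**Figure D3:**
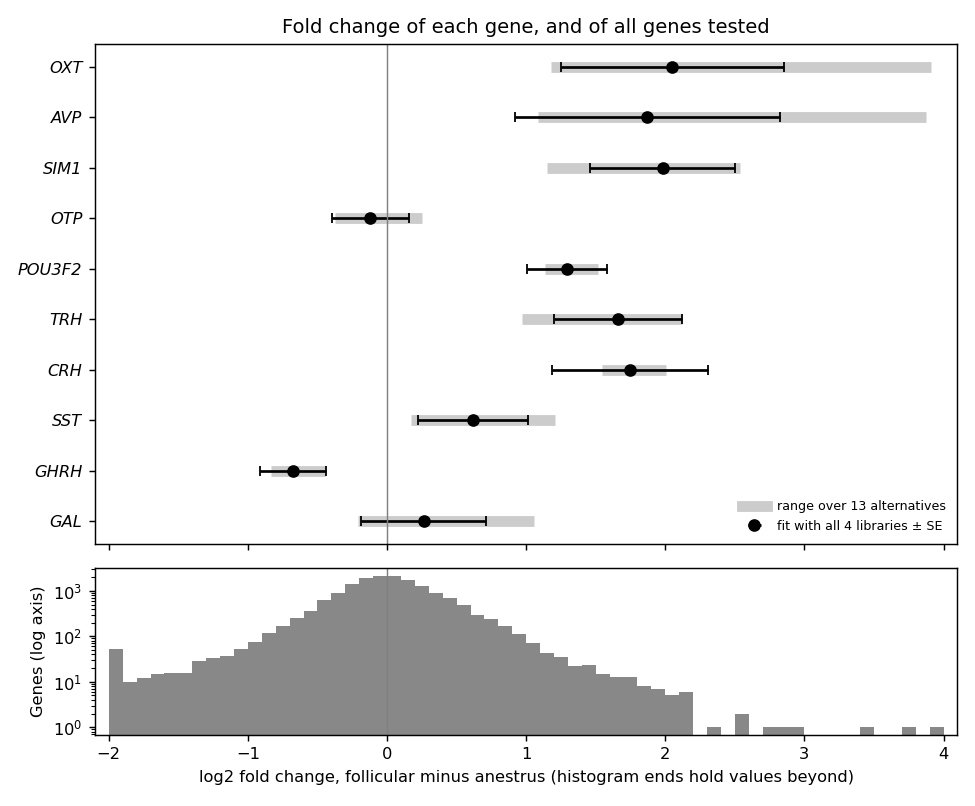
Top, log2 fold change (follicular minus anestrus) of each gene with its standard error, and as a grey bar its range over 13 alternatives. Bottom, the same quantity for all genes tested on a log count axis, with values beyond -2 and 4 placed in the end bins. OXT, AVP, SIM1, POU3F2, TRH and CRH lie between 1.29 and 2.05, in the right tail of all genes, while GHRH lies at -0.68.

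Among the hypophysiotropic hormones, TRH and CRH lay on the same side as OXT and AVP. TRH (gene 108633383), the precursor of thyrotropin-releasing hormone, had 14.4 and 6.39 CPM in the follicular pools, against 4.21 and 2.44 CPM in the anestrus pools. The groups did not overlap, and pool 1 was the higher in both. Its log2 fold change was 1.66 ± 0.46, with an unadjusted p of 0.00491 and an adjusted p of 0.301 (edgeR). TRH just passed in DESeq2's Wald test (adjusted p = 0.0499), and its log2 fold change was 0.97 without follicular pool 1.

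CRH (gene 102171263), the precursor of corticotropin-releasing hormone, had low read numbers in every library. It had 43 and 33 reads in the follicular pools against 9 and 8 reads in the anestrus pools, or 1.69 and 1.92 CPM against 0.631 and 0.444 CPM. The pools of a group lay close together, as for POU3F2. The log2 fold change was 1.75 ± 0.56, the unadjusted p 0.0103 and the adjusted p 0.366 (edgeR). CRH passed in none of the 13 alternatives, with log2 fold changes from 1.55 to 2.00. At these read numbers the counting error alone is large, so the lack of a call does not show that CRH was equal in the 2 seasons.

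SST (gene 102170466), the precursor of somatostatin, which inhibits growth hormone release, was the best covered of the 10 genes. It had 3908 and 1499 reads in the follicular pools and 1500 and 939 reads in the anestrus pools. In CPM these were 153.8 and 87.1 against 105.2 and 52.1, so the groups overlapped, with follicular pool 2 below anestrus pool 1. The pools differed 1.77-fold in the follicular phase (1.66 to 1.88) and 2.02-fold in anestrus (1.86 to 2.19), intervals that leave out equality. The log2 fold change was 0.62 ± 0.40 with an adjusted p of 0.77 (edgeR), and it was 1.21 without anestrus pool 1 and 0.17 without follicular pool 1. Reading depth did not limit this gene, since the spread between pools was far above the counting error.

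GHRH (gene 102181610), the precursor of growth hormone-releasing hormone, made by arcuate neurons, had values on the other side. It had 23.3 and 19.5 CPM in the follicular pools, against 39.4 and 29.1 CPM in the anestrus pools. Both follicular libraries were below both anestrus libraries. The log2 fold change was -0.68 ± 0.24, 1.60-fold higher in anestrus, with an unadjusted p of 0.0163 and an adjusted p of 0.424 (edgeR). It was negative in all 13 alternatives, from -0.83 to -0.44. SST reads per GHRH read, a ratio of the inhibiting to the releasing hormone precursor within a library, were 6.61 and 4.46 in the follicular pools against 2.67 and 1.79 in the anestrus pools, and these did not overlap. The ratios of GHRH to all the other members were also without overlap, so this is not particular to SST.

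GAL (gene 102187379), the precursor of galanin, a peptide that magnocellular and arcuate neurons among others make, tracked SST. It had 11.1 and 6.68 CPM in the follicular pools, against 10.7 and 4.28 CPM in the anestrus pools. The groups overlapped almost fully, and pool 1 was the higher in each. Its log2 fold change was 0.26 ± 0.45 with an adjusted p of 0.933 (edgeR), and it was negative without follicular pool 1 (-0.13) or without anestrus pool 2 (-0.21). SST reads per GAL read were 13.9 and 13.0 in the follicular pools against 9.87 and 12.2 in the anestrus pools, the second steadiest ratio of the 45 pairs. Even so, this ratio was higher in both follicular pools than in both anestrus pools.

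Within groups the pools followed a pattern of their own. Pool 1 exceeded pool 2 in both groups for 7 of the 10 genes, beside 33.2% of all genes tested. For OXT, AVP, TRH, SST and GAL it did so by 1.5 times or more in both groups, beside 4.64% of all genes. SIM1, POU3F2 and CRH did not share this order. These counts use the numbers in the library names. The titles number the anestrus pools the other way round, and with those numbers pool 1 exceeded pool 2 in both groups for 0 of the 10 genes, beside 17% of all genes. Nothing in the labels links a pool of one group to a pool of the other, so the counts say only that these genes were high or low together in the pools of each group.

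Marker lists showed that the pools differed in more than these genes. The 7 arcuate peptides POMC, AGRP, NPY, KISS1, TAC3, TH (tyrosine hydroxylase) and NMU summed to 289.5 and 122.7 CPM in the follicular pools against 380.2 and 168.4 CPM in the anestrus pools, with pool 1 the higher in each group. Of these, 4 of 7 had positive log2 fold changes, 0 passed and the median was 0.01. POMC made up much of the sum, and the other 6 peptides summed to 119.7 and 84.9 CPM against 120.6 and 76.5 CPM. The 13 neuron markers tested all had positive log2 fold changes (median 0.38, 0 passed) and summed to 5349 and 6071 CPM against 4722 and 4475 CPM. Oligodendrocyte markers (10 of 10 positive, 0 passed, median 0.77) summed to 3538 and 4766 CPM against 2992 and 1934 CPM, lowest in anestrus pool 2, as for OXT and AVP. Astrocyte markers (8 of 8 positive, median 0.57, 1 passed, GFAP) summed to 9744 and 10742 CPM against 6040 and 6144 CPM. Anterior pituitary and pars tuberalis markers lay mostly on the other side (7 of 10 negative, 2 passed, TSHB and CGA, median -0.95). They summed to 7095 and 5426 CPM against 15511 and 11942 CPM. CGA made up most of this sum, at 5232 and 4295 CPM in the follicular pools against 13142 and 10309 CPM in the anestrus pools. LHB, GNRHR and CHGA had positive log2 fold changes, of 1.48, 1.57 and 0.98. The part of these shifts in the values of the 10 genes was not tested.

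Markers of neighbouring areas gave a mixed picture. The suprachiasmatic list, of interest because AVP is also made there, had 0 of 7 tested genes passing. Log2 fold changes were positive for 4 and negative for 3 of them, with a median of 0.00. RORB, a nuclear receptor gene found in the suprachiasmatic nucleus and in other brain areas, was the best covered of the list, at 198 and 219 CPM in the follicular pools against 282 and 370 CPM in the anestrus pools. Both follicular libraries were below both anestrus libraries, the opposite of AVP (log2 fold change -0.64 ± 0.18, unadjusted p = 0.00416, adjusted p = 0.29, edgeR). VIP, a peptide of the suprachiasmatic core, had 2.01 and 0.697 CPM in the follicular pools against 1.61 and 1.17 CPM in the anestrus pools, and those groups overlapped. NMS, LHX1, SIX3 and SIX6 overlapped too, while RGS16 was lower in both follicular pools, as RORB was. The lateral hypothalamic and ventromedial list had 0 of 5 passing and a median of 0.28, and the thalamic and telencephalic list 0 of 5 and 0.32. How much of the paraventricular and supraoptic nuclei entered each dissected block was not measured.

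**Figure D4:**
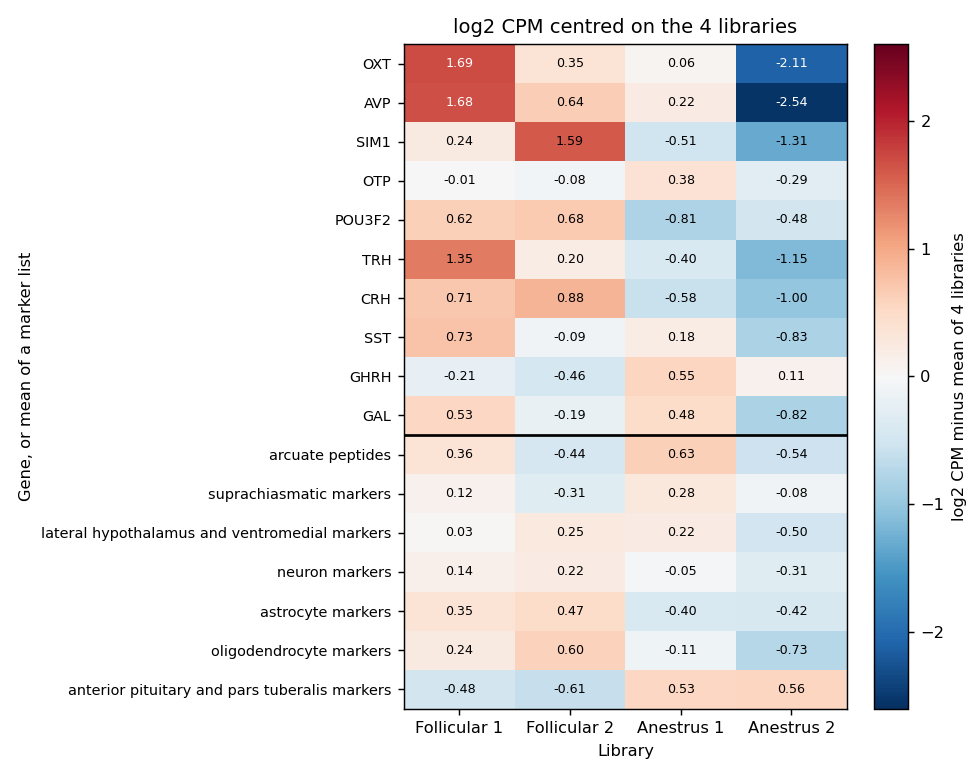
Log2 CPM centred on the 4 libraries for the 10 genes (above the black line) and averaged over marker lists (below it), with red above and blue below the mean of the 4 libraries. Anestrus pool 2 is the lowest library for OXT (-2.11), AVP (-2.54), SIM1, OTP, TRH, CRH, SST and GAL. It is also the lowest for the oligodendrocyte (-0.73), arcuate (-0.54), lateral hypothalamic and ventromedial (-0.50) and neuron (-0.31) lists. For the astrocyte list it is the lowest by little (-0.42, beside -0.40 in anestrus pool 1).

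Receptors of these peptides were largely outside the range of the test. Of 15 in the table, 7 passed the filter on low counts, 0 passed the test and 6 of 7 had positive log2 fold changes, with a median of 0.31. SSTR1, a somatostatin receptor, had 52.3 and 45.2 CPM in the follicular pools against 33.5 and 25.3 CPM in the anestrus pools, without overlap (log2 fold change 0.73 ± 0.22, adjusted p = 0.313, edgeR). OXTR, the oxytocin receptor, had 4.60 and 3.83 CPM in the follicular pools against 2.17 and 2.55 CPM in the anestrus pools (log2 fold change 0.83 ± 0.39, adjusted p = 0.609, edgeR). SSTR2 stayed near 10 CPM, at 10.7 and 10.6 CPM against 10.7 and 8.16 CPM. SSTR3 and GALR3, receptors of somatostatin and galanin, had log2 fold changes of 0.45 ± 0.45 and 0.31 ± 0.38.

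CRHR1, the CRH receptor of corticotrophs and of many neurons, had 73 and 42 reads in the follicular pools against 61 and 22 in the anestrus pools. In CPM these were 2.87 and 2.44 against 4.28 and 1.22, so the groups overlapped (log2 fold change -0.03 ± 0.56, adjusted p = 0.994, edgeR). Several other receptors had too few reads to be tested. AVPR1B, the vasopressin receptor of corticotrophs, had 0 reads in all 4 libraries, where 3 reads would have been 0.118 and 0.174 CPM in the follicular pools and 0.210 and 0.167 CPM in the anestrus pools. TRHR, the TRH receptor of thyrotrophs and lactotrophs, had 8 and 5 reads in the follicular pools against 2 and 2 in the anestrus pools. GHRHR, the GHRH receptor of somatotrophs, had 6 and 6 reads against 5 and 17. GALR2 had 5 and 5 reads against 0 and 0.

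Of 6 related peptides and peptide-handling genes tested, 0 passed, 5 had positive log2 fold changes and the median was 0.16. CD38, an ectoenzyme needed in mice for oxytocin secretion, had 44.5 and 51.8 CPM in the follicular pools against 30.4 and 28.4 CPM in the anestrus pools, without overlap (log2 fold change 0.71 ± 0.20, adjusted p = 0.299, edgeR). TRHDE, the ectoenzyme that degrades TRH, had a log2 fold change of 0.29 ± 0.27, and LNPEP, the oxytocinase, of 0.01 ± 0.19. CRHBP, which binds CRH, and SPX, the precursor of spexin, an additional ligand of galanin receptors, had 0.27 ± 0.31 and 0.04 ± 0.34.

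Other transcription factors of neuroendocrine lineages lay on both sides. Of 17 tested, 0 passed, 12 had positive and 5 negative log2 fold changes, and the median was 0.18. ARNT2, the partner with which SIM1 binds DNA in mice, had 208 and 182 CPM in the follicular pools against 147 and 160 CPM in the anestrus pools (log2 fold change 0.35 ± 0.16, adjusted p = 0.598, edgeR). POU3F3, a relative of POU3F2, had a log2 fold change of 0.83 ± 0.32, and POU3F4, with 21 and 26 reads in the follicular pools against 7 and 1 in the anestrus pools, of 2.14 ± 0.84. ISL1, a homeobox factor of arcuate neurons, lay on the side of GHRH, at 70.1 and 62.2 CPM in the follicular pools against 130.2 and 105.9 CPM in the anestrus pools (log2 fold change -0.83 ± 0.18, adjusted p = 0.155, edgeR). FEZF2 had a log2 fold change of -0.85 ± 0.34.

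Further genes used by paraventricular and supraoptic neurons were examined as a list of 9, of which 0 passed, 6 had positive log2 fold changes and the median was 0.48. NOS1, the neuronal nitric oxide synthase found in many magnocellular cells, had 33.1 and 39.0 CPM in the follicular pools against 11.0 and 20.2 CPM in the anestrus pools. These did not overlap (log2 fold change 1.20 ± 0.29, adjusted p = 0.235, edgeR). PDYN, the dynorphin precursor that vasopressin neurons and arcuate neurons make, had 337 and 287 CPM against 222 and 226 CPM (0.48 ± 0.16 on the log2 scale). SLC17A6, the vesicular glutamate transporter of hypothalamic excitatory neurons, had a log2 fold change of 0.56 ± 0.18, and BRS3, a bombesin-family receptor, of 0.76 ± 0.34. CARTPT, made in both the paraventricular and the arcuate nucleus, had -0.60 ± 0.32, at 137 and 107 CPM against 249 and 122 CPM. None of these genes is found only in those nuclei.

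**Figure D5:**
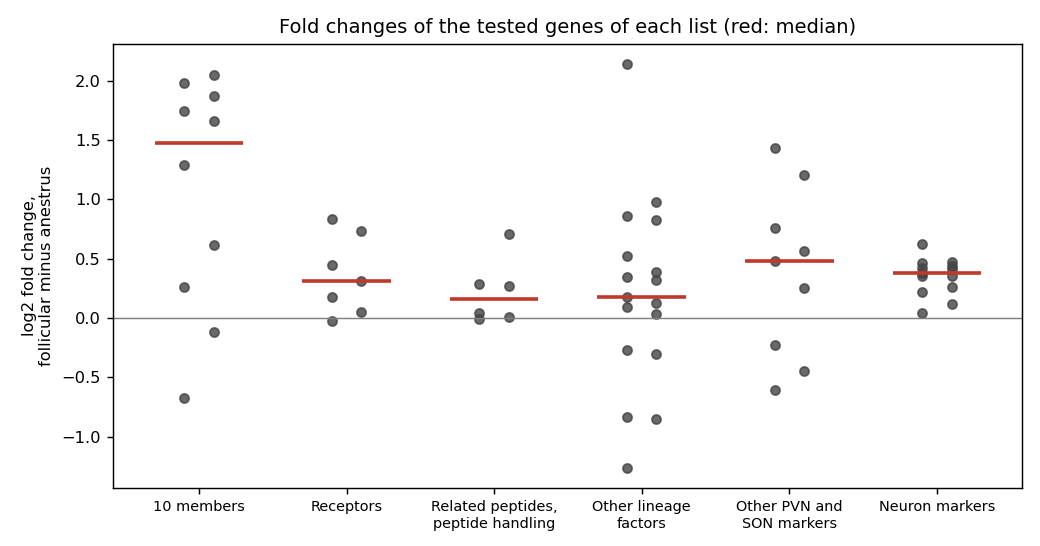
Log2 fold change (follicular minus anestrus) of each tested gene of 6 lists, with the list's median as a red line; PVN and SON are the paraventricular and supraoptic nuclei. The 10 members have a median of 1.48, beside 0.31 for the receptors, 0.16 for related peptides and peptide handling, 0.18 for other lineage factors, 0.48 for the other PVN and SON markers and 0.38 for the neuron markers.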

How the data were processed

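The authors deposited unnormalized counts of reads for each gene. TriReagent was used for extraction and the Truseq stranded mRNA kit for the libraries, per the labels' protocols. The tools named for alignment and counting are featureCounts 2.0.0, TopHat2 2.1.1 and Bowtie2 2.3.5.1, per the submitters' processing notes. The sources used here do not give the genome build, annotation or strand setting, so no coordinates are printed.

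Genes were kept with filterByExpr (minimum count 10, minimum total 15), leaving 16756. After TMM scaling, edgeR 4.0.16 (R 4.3.3) was run with glmQLFit (robust) and glmQLFTest, with 2 residual degrees of freedom and Benjamini-Hochberg adjustment over all genes tested. Log2 fold changes are follicular minus anestrus, followed by their standard error. Alternatives used DESeq2 1.42.0 and limma 3.58.1. The edgeR steps were tested on simulated data. P-values measure the spread between 2 pools per group, not between goats. Exact intervals cover counting error only.

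The members and lists were chosen with earlier results of these data known. The named genes were all members and, of 4 lists, called genes, up to 4 with the smallest p and up to 2 with the highest mean CPM. The other genes given with values (AVPR1B, TRHR, GHRHR, GALR2, CRHR1, VIP, RORB and those under the closing observations) were chosen after their values were seen. Genes were likened to OXT, AVP and SST on log2 CPM (prior count 2). Lists held 137 entries, of which 132 matched the table. The libraries are numbered by their library names, since the titles number the anestrus pools in opposite order. RGS16 is in 2 lists.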

Additional observations from a re-analysis of the deposited data

How the results depend on the processing

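Over all genes, 34 were called with all 4 libraries. The count was 300 with no filter on low counts, 143 in DESeq2's Wald test, 90 with a replicate block by the number in the library names, 130 with a block by the number in the titles (chosen after seeing the data), and 4 to 810 when 1 pool was left out. Of the 10 genes, 0 were called with all libraries, 4 with no filter (OXT, SIM1, POU3F2 and TRH), 3 in DESeq2's test, 0 with the block by library names (lowest adjusted p = 0.0531, edgeR), 1 with the block by titles (SIM1), and 0 to 6 when 1 pool was left out. The 6, without anestrus pool 1, were OXT, AVP, SIM1, POU3F2, TRH and SST; without anestrus pool 2 they were 5, AVP, SIM1, POU3F2, TRH and GHRH; without follicular pool 2 the call was TRH. A group with 1 pool left has no measured spread of its own; the cause of the other shifts was not tested. The sign turned for OTP (0.25 without anestrus pool 1, with a range of -0.38 to 0.25 when 1 pool was left out) and for GAL (-0.13 without follicular pool 1 and -0.21 without anestrus pool 2, in a range of -0.21 to 1.06). The other 8 genes kept their direction in all 13 alternatives. The OXT to AVP log2 ratio differed between groups by 0.03, and by -0.16 to 0.21 when 1 pool was left out, within its spread. Pool deviations of the same number correlated at r = 0.26 across genes, which are not independent, with only 2 pairs, so the numbers were not taken to pair the pools. Low read numbers limit OXT and CRH most.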

Other observations

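Markers of neighbouring areas held a few values outside the comparisons above, named after their values were seen. SLC17A7, a vesicular glutamate transporter mainly of cortical neurons, had 5.51 and 3.95 CPM in the follicular pools against 1.54 and 1.17 CPM in the anestrus pools, a log2 fold change of 1.81 (adjusted p = 0.218, edgeR). PMCH, the precursor of melanin-concentrating hormone made in the lateral hypothalamus, had 89.4 and 211 CPM in the follicular pools against 152 and 46.0 CPM in the anestrus pools, and was high in follicular pool 2, as SIM1 was. SST was closest in pattern to SLC9A3R2, STK32C and PRKAR1B, at root mean square differences of 0.03 to 0.04, but 29.4% of the genes compared lay within 0.5 of it, so this likeness picks out few features of SST.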
